A study of Mus musculus with 8 samples.

Results

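The insulin-like growth factor 1 (IGF-1) axis was examined in the renal cortex of young and aged mice through 10 genes, taken by symbol from a table of 22609 genes: Igf1, its receptor Igf1r, the growth hormone receptor Ghr, and the IGF binding protein genes Igfbp1, Igfbp2, Igfbp3, Igfbp4, Igfbp5, Igfbp6 and Igfbp7. All 10 symbols were found, each once. RNA-Seq had been done on kidney cortex of 4 aged and 4 young male C57BL6 mice, 1 library per mouse. Per the labels the aged mice were 30 months and the young mice 5 months old (the study's methods give the aged mice a somewhat higher mean age), and no label gives a treatment or an altered allele in either group. The question put to these genes was whether their mRNA differed with age. Libraries held between 14820804 and 19821429 read pairs on genes, so that 3 counts, taken as the floor, were worth 0.151 to 0.202 counts per 1000000 (CPM) and covered counting error only.

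Growth hormone, released by the pituitary, binds the growth hormone receptor on target cells and, through JAK2 and STAT5, drives transcription of Igf1, above all in the liver. IGF-1 acts on the tyrosine kinase IGF1R, while IGF binding proteins hold IGFs in blood and tissue and set how much reaches the receptor, and proteases such as PAPPA and PAPPA2 cut the binding proteins and release the ligand. In the kidney this axis is known for its effects on filtration, tubular transport and growth. Transcription of Igfbp1 is classically held down by insulin through FOXO factors and raised in fasting and by glucocorticoids.

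The upstream sequence of Igfbp1 is shown because its mRNA varied more than that of any other tested member among the aged mice, and because it is the member whose control by insulin is best known. The RefSeq promoter table (build GRCm38.p6) held 12 windows for the 10 genes, with Ghr and Igfbp2 at 2 starts each. The 250 bases before the Igfbp1 start lie at chr11:7197537-7197786 on the plus strand. Capitals mark matches to the insulin response motif CAAAANAA, searched on both strands.

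Igfbp1: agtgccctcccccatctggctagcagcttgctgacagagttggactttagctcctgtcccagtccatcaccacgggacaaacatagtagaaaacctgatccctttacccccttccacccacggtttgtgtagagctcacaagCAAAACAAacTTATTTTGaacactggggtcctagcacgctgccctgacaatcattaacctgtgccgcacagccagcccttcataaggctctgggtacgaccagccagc

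The match CAAAACAA began 108 bases before the start, and TTATTTTG, which reads as the motif on the minus strand, began 98 bases before it. Of 32851 promoters of that length, 7.16% held at least 1 match and 0.64% held 2 or more. The windows of the other 9 genes held 0. A glucocorticoid response core (ACANNNTGT) and a STAT5 motif (TTCNNNGAA) were found in 0 of the 12 windows, against 5.84% and 7.02% of all promoters. TATAAA, which 12.37% of promoters held, was present in those of Igfbp4 and Igfbp6 and in 1 of the Ghr windows. No match overlapped another in the Igfbp1 window, and a match describes letters only, not binding.

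Kidney cortex was the labelled tissue. The megalin gene Lrp2 and the cubilin gene Cubn, of the proximal tubule, were at 3862 to 11166 CPM and 1619 to 2502 CPM over the 8 libraries. Slc14a2, a urea transporter of the inner medulla, was at 89.2 CPM in aged mouse 1 and 26.7 CPM in young mouse 1, and at most 0.327 CPM in the other 6 libraries. The adrenal gene Cyp11b1 was at 0 counts in all 8. Aged mouse 1 also had the lowest summed level of 9 proximal tubule markers, 10543 CPM against 21380 to 24748 CPM in the other aged mice and 21644 to 25747 CPM in the young mice, and stood apart from the other libraries on the first principal component.

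Of the 10 genes, 9 passed the filter on low counts and 0 were called changed with age, where a call needed an adjusted p below 0.05 in edgeR's quasi-likelihood test and a fold change above 1.5. Of all 13944 genes tested, 2.06% were called. The direction was higher in aged mice for 5 of the 9 and lower for 4, with a median log2 fold change of 0.02, beside 0.03 over all genes tested. At an adjusted p below 0.05 with no fold limit there were also 0 members (2.95% of all genes). At an unadjusted p below 0.05 there was 1 member, Ghr (25.5% of all genes), and Ghr was also the single tested member whose aged and young values did not overlap (18.9% of all genes). DESeq2 called 1 member, again Ghr (6.26% of all genes), and limma-voom called 0.

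**Figure D1:**
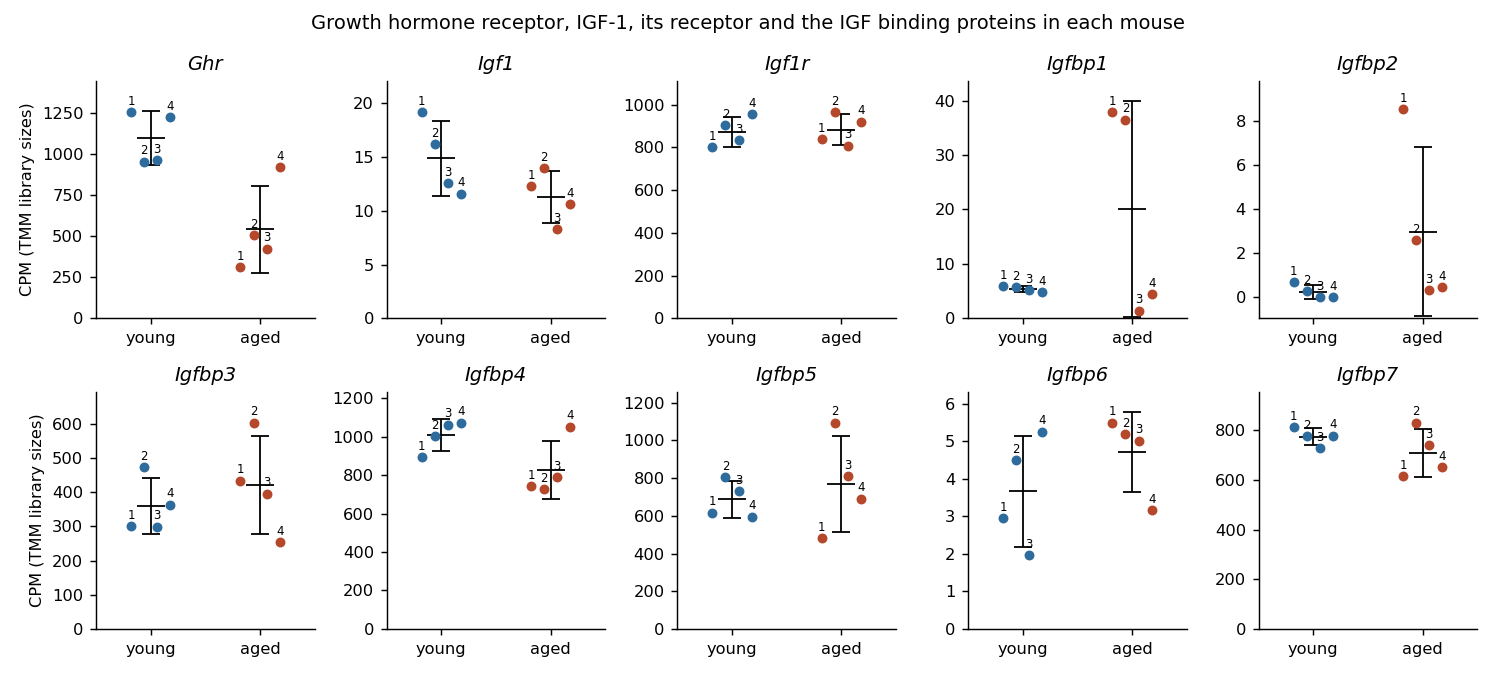
Each panel plots one gene's level in CPM on TMM library sizes, with 1 numbered point per mouse (young in blue, aged in red) and the mean and SD of each group in black (n = 4). Ghr is the panel in which the groups separate, with all aged mice at or below 917 CPM and all young mice at or above 952 CPM, while Igfbp1 and Igfbp2 are high in aged mice 1 and 2 alone.

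Ghr (chromosome 15, 3267760 to 3533492, minus strand, mm9) encodes the receptor through which growth hormone signals, and in the kidney it is known from the proximal tubule. Its level was 311, 506, 423 and 917 CPM in aged mice 1 to 4. The young mice had 1254, 952, 961 and 1222 CPM. All aged mice therefore lay below all young mice, but aged mouse 4 reached 0.836 of the young mean while the other aged mice reached 0.284, 0.461 and 0.385. The means were 539 ± 264 CPM in aged and 1097 ± 163 CPM in young mice (SD, n = 4). The log2 fold change was -1.02 (SE 0.30, 95% interval -1.70 to -0.34), with an adjusted p of 0.0890 in edgeR, which missed the threshold. An absolute log2 difference of that size or more was found in 4.58% of all genes tested. The adjusted p lay between 0.00751 and 0.201 over the alternatives. Ghr passed the threshold in 2 of 17 of them, DESeq2 (adjusted p 0.00873) and edgeR without aged mouse 4 (log2 fold change -1.41, adjusted p 0.00751). Without aged mouse 1 the log2 fold change was -0.83 in edgeR (adjusted p 0.0842).

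Of 9 proximal tubule markers, all detected, 0 were called, 6 were lower and 3 higher in aged mice. The order of the aged mice was that of Ghr for 3 of the 9, Slc22a6, Slc7a13 and Lrp2, named here after their values were seen, and another order for 6. Slc22a6, which encodes the organic anion transporter OAT1, was at 372, 768, 661 and 1186 CPM in aged mice 1 to 4 and between 1241 and 1484 CPM in young mice. Slc7a13, an amino acid transporter of the late proximal tubule, was at 183, 511, 446 and 1076 CPM in aged mice, beside 964 to 1227 CPM in young mice. For Lrp2, at 3862, 9743, 8734 and 10580 CPM, aged mice 2 and 4 lay within the young range of 9399 to 11166 CPM. Slc5a12, a lactate transporter of the proximal tubule, went the other way, at 439, 988, 1065 and 736 CPM in aged and 374 to 567 CPM in young mice. In whole cortex, fewer cells of a type and less RNA per cell cannot be told apart, and the part of cell make-up in the Ghr values was not tested. Among all genes tested, Lypla1 and Mep1a had the pattern most like that of Ghr over the 8 libraries, at a root mean square difference of 0.124 and 0.153 between standardized log2 CPM, where the median gene was at 1.45. Mep1a encodes a subunit of meprin, a protease of the proximal tubule brush border, and Lypla1 an acyl-protein thioesterase.

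Downstream of the receptor, the growth hormone signalling list of 8 genes, Ghr included, had 0 called genes. The cytokine-induced inhibitors of this pathway, Socs2 and Cish, spread widely within groups. Socs2 was at 30.2, 13.9, 12.3 and 21.7 CPM in aged and 29.8, 5.82, 65.4 and 15.5 CPM in young mice (log2 fold change -0.57, edgeR adjusted p 0.583). For Cish the values were 34.1, 15.4, 22.4 and 65.7 CPM in aged and 13.4, 6.98, 43.9 and 10.4 CPM in young mice (log2 fold change 0.89, edgeR adjusted p 0.379). Young mouse 3 was the highest young mouse for both.

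Igf1 (chromosome 10, 87321010 to 87399792, plus strand, mm9), the ligand, was a low-abundance mRNA in cortex. The aged mice had 12.3, 14.0, 8.28 and 10.6 CPM. The young mice had 19.2, 16.2, 12.6 and 11.6 CPM. The groups overlapped, with aged mouse 2 above young mice 3 and 4, and the spread was similar in both, the highest mouse being 1.69 times the lowest in aged and 1.65 times in young mice. The log2 fold change of -0.40 (SE 0.20, 95% interval -0.86 to 0.06) did not pass the test (edgeR adjusted p 0.244) and kept its sign in all 17 alternatives. Igf1 shares its locus with the gene Gm16176 on the other strand, and the deposited counts were made by strand.

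The receptor Igf1r (chromosome 7, 75097713 to 75371484, plus strand, mm9) varied least of all members among the aged mice. Its level was 838, 966, 809 and 921 CPM in aged mice 1 to 4. In young mice it was 801, 905, 834 and 957 CPM. These ranges coincided almost fully, and the highest mouse was 1.19 times the lowest in each group. The log2 fold change was 0.02 (95% interval -0.22 to 0.25, edgeR adjusted p 0.937), so differences above 1.5-fold lay outside the interval, and the sign changed with the mouse left out. The insulin receptor gene Insr, whose product can pair with IGF1R, was at 490, 352, 315 and 364 CPM in aged mice. The young values were 269, 269, 300.4 and 328 CPM, reaching above the lowest aged mouse. Its log2 fold change of 0.38 (edgeR adjusted p 0.145) and that of Igf2r, the clearance receptor for IGF-2 (-0.10, adjusted p 0.504), did not pass the test.

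Among the binding proteins, Igfbp1 (chromosome 11, 7097785 to 7102549, plus strand, mm9) had the largest fitted difference among those tested. Igfbp1 binds IGF-1 and is made by liver, decidua and kidney. Aged mice 1 and 2 had 37.9 and 36.5 CPM (772 and 561 counts), but aged mice 3 and 4 had 1.39 and 4.36 CPM (26 and 80 counts). The young mice were close together at 5.86, 5.66, 5.17 and 4.78 CPM. Against the young mean, aged mice 1 and 2 stood at 7.06 and 6.80 times and aged mice 3 and 4 at 0.259 and 0.812 times, so the aged mice lay on both sides of the whole young range. The fitted log2 fold change of 1.90 (SE 0.85, 95% interval -0.02 to 3.82) did not pass the test (edgeR adjusted p 0.200). It was 0.81 in limma-voom and 1.37 and 1.44 without aged mouse 1 or 2 in edgeR, with adjusted p between 0.0881 and 0.672 over the alternatives.

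Igfbp2 (chromosome 1, 72871077 to 72899048, plus strand, mm9), another insulin-responsive binding protein of liver and brain, was high in the same pair of aged mice but near the floor elsewhere. Its counts were 174, 40, 6 and 8 in aged mice and 11, 5, 0 and 0 in young mice, or 8.54, 2.6, 0.321 and 0.436 CPM against 0.678, 0.264, 0 and 0 CPM. Aged mice 3 and 4 lay within the young range. The gene did not pass the filter on low counts. A two-sided exact permutation test of the CPM gave p = 0.114 (n = 4 and 4, smallest possible p 0.0286), and edgeR with no filter gave a log2 fold change of 3.60 with an adjusted p of 0.137.

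Other levels also stood apart in aged mice 1 and 2 or in aged mouse 1, which the heat map of 13 genes chosen after their values were seen shows. The summed level of 4 fat markers (3 of them tested, 0 called) was 116, 25.8, 4.01 and 16.8 CPM in aged mice 1 to 4, beside 0.544 to 10.99 CPM in young mice. The 4 inner medulla markers (3 tested, 0 called) summed to 299, 40.1, 10.6 and 24.1 CPM in aged and 21.5 to 96.2 CPM in young mice. For both sums aged mouse 1 was the highest of the 8 mice and aged mouse 2 the next highest aged mouse. The inner medulla sum of aged mouse 2 lay within the young range. The 12 genes of a fasting and glucocorticoid response list summed to 9820 CPM in aged mouse 1. In aged mice 2 to 4 they summed to 2530, 2681 and 2747 CPM, each lower than in any young mouse (3025 to 3909 CPM). Pck1, a gluconeogenic enzyme gene with the highest level of the list in every mouse, made up 1023, 1103 and 1144 CPM of those sums. In young mice Pck1 was at 1631 to 2484 CPM, so the lower sums of aged mice 2 to 4 rest largely on Pck1. They do not show that the other genes of the list were lower. The parts of fat, inner medulla and feeding state in the Igfbp1 and Igfbp2 values were not tested. The genes whose pattern over the 8 libraries was most like that of Igfbp1 were Fasn, the fatty acid synthase gene, and Pde7b, a cyclic AMP phosphodiesterase, at root mean square differences of 0.180 and 0.204 (median gene 1.42). Fasn was at 344, 391, 119 and 169 CPM in aged mice 1 to 4 and 159 to 197 CPM in young mice.

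**Figure D2:**
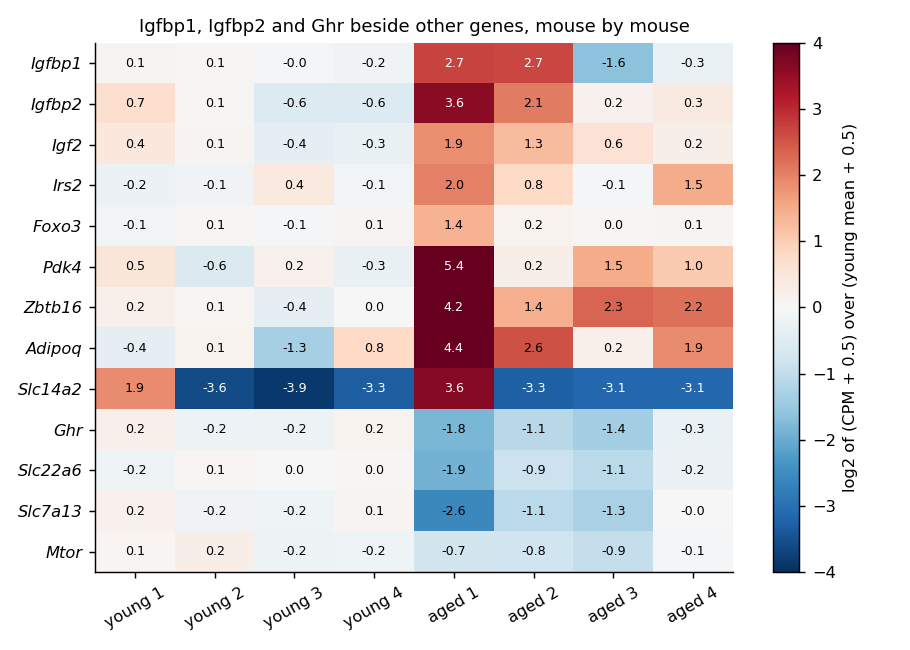
Colour and number give the log2 of a mouse's CPM plus 0.5 over the young mean plus 0.5, for 13 genes (vertical axis) in 8 mice (horizontal axis), with the colour scale ending at 4 in each direction. Igfbp1 reads 2.7 in aged mice 1 and 2 and -1.6 in aged mouse 3, whereas Zbtb16 is above the young mice in all 4 aged mice and Ghr, Slc22a6 and Slc7a13 are lowest in aged mouse 1.

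Igfbp1 and Igfbp3 are neighbours tail to tail on chromosome 11, with 3539 nt between their ends, and Igfbp2 and Igfbp5 likewise on chromosome 1 with 5457 nt, with 0 protein-coding genes annotated in either gap. Per 1000 counts of Igfbp3 there were 87.5, 60.5, 3.51 and 17.2 counts of Igfbp1 in aged mice and 19.4, 11.9, 17.3 and 13.2 in young mice. Per 1000 counts of Igfbp5 there were 17.7, 2.38, 0.396 and 0.631 counts of Igfbp2 in aged mice and at most 1.1 in young mice.

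Igfbp3 (chromosome 11, 7106089 to 7113926, minus strand), which carries most IGF in blood together with the acid-labile subunit, was at 433, 603, 395 and 253 CPM in aged mice. The young mice had 301, 474, 299 and 364 CPM. Aged mice held both the highest and the lowest value. With age its log2 fold change was 0.23 (95% interval -0.34 to 0.80, edgeR adjusted p 0.588). Igfals, the gene of the acid-labile subunit, was at 9.35 to 12 CPM in aged and 9.10 to 13.7 CPM in young mice.

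Igfbp4 (chromosome 11, 98902558 to 98913969, plus strand), mainly an inhibitor of IGF action and a substrate of PAPPA, was at 742, 728, 791 and 1051 CPM in aged mice. Its young values were 893, 1002, 1062 and 1072 CPM. Aged mice 1 to 3 lay below every young mouse and aged mouse 4 lay within the young range, as it nearly did for Ghr. EdgeR gave a log2 fold change of -0.28 (SE 0.14, 95% interval -0.60 to 0.03, edgeR adjusted p 0.235), with adjusted p between 0.0481 and 0.404 over the alternatives, in none of which the fold reached 1.5. Lrpprc, a mitochondrial RNA-binding protein, was among the genes with the most similar pattern, at 0.236 (median gene 1.43).

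Igfbp5 (chromosome 1, 72904506 to 72921458, minus strand), a binding protein that attaches to extracellular matrix, was at 484, 1094, 811 and 691 CPM in aged mice and 617, 804, 730 and 596 CPM in young mice. Again the aged group held both extremes. Its fitted log2 fold change was 0.16 (95% interval -0.35 to 0.68, edgeR adjusted p 0.670) and was -0.05 without aged mouse 2. Igfbp6 (chromosome 15, 101974793 to 101979942, plus strand), which prefers IGF-2, was scarce at 5.50, 5.20, 5.02 and 3.16 CPM in aged and 2.96, 4.50, 1.97 and 5.26 CPM in young mice. These groups overlapped widely (log2 fold change 0.36, 95% interval -0.35 to 1.06, edgeR adjusted p 0.489).

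Igfbp7 (chromosome 5, 77778265 to 77837070, minus strand), a matrix protein of vessels and tubules with weak affinity for IGFs and a marker of kidney injury in urine, was at 615, 831, 742 and 653 CPM in aged mice. In young mice it was at 812, 778, 729 and 779 CPM. Aged mice 1 and 4 were below and aged mouse 2 above all young mice. Its log2 fold change of -0.12 (95% interval -0.38 to 0.13, edgeR adjusted p 0.511) did not pass the test, and its interval left out a difference of 1.5-fold. The 3′ end of Igfbp7 overlaps Polr2b on the other strand, and counts were made by strand.

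To compare levels between genes, CPM was divided by kilobases of merged exons in the GENCODE annotation of mm9. On this per-kilobase level the young mice were led by Igfbp7 at 639 ± 28.1, then Igfbp4 at 427 ± 34.8 and Igf1r at 195 ± 15.6 (SD, n = 4), an order held in 8 of 8 libraries with no overlap between neighbours. Ghr (121 ± 18), Igfbp3 (115 ± 26.1) and Igfbp5 (114 ± 16.3) overlapped in young mice, and Ghr was above Igfbp3 in 4 of 8 libraries. Far below came Igfbp1 (3.52 ± 0.317), Igfbp6 (3.30 ± 1.33) and Igf1 (1.5 ± 0.347), whose young ranges overlapped between Igfbp1 and Igfbp6 and between Igfbp6 and Igf1. Igfbp2 was last at 0.128 ± 0.173. Gene length mattered. With the longest annotated transcript (4175 nt in place of 9053 nt of merged exons) the young level of Ghr per kilobase was 263, above Igf1r at 209. By that length Igfbp3 was at 148, while Igfbp5 stayed at 114. Reads had been counted on RefSeq genes, whose exon lengths were not available here, so the order holds for the GENCODE lengths only.

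Igfbp7 and Igfbp4 led the binding protein mRNA at both ages. The 7 per-kilobase levels summed to 1218 ± 134 in aged and 1301 ± 47.1 in young mice (SD, n = 4), which differed by less than the spread of the aged group. Igfbp7 made up 48.0% ± 2.16 of that sum in aged and 49.1% ± 2.94 in young mice. Igfbp4 made up 29.1% ± 6.41 and 32.8% ± 2.47. The shares of Igfbp3 were 11% ± 3.11 and 8.78% ± 1.67, and those of Igfbp5 were 10.3% ± 2.33 and 8.78% ± 1.11. Igfbp1 took 2.31% and 1.71% in aged mice 1 and 2, against 0.0751% and 0.241% in aged mice 3 and 4 and 0.238% to 0.306% in young mice.

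**Figure D3:**
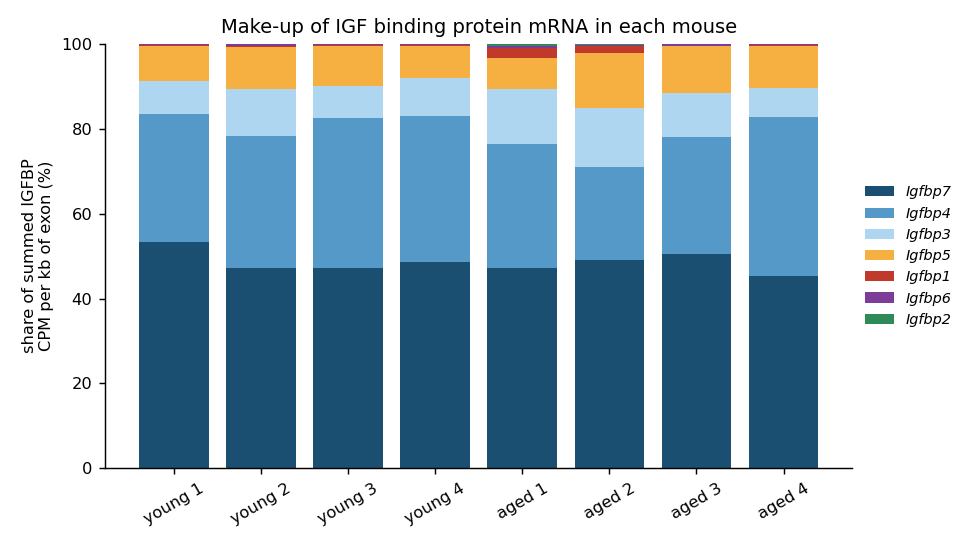
Stacked bars give, for each mouse, the share in percent of each binding protein gene in the summed CPM per kilobase of all 7. Igfbp7 and Igfbp4 fill most of every bar, and the red Igfbp1 segment can be seen in aged mice 1 (2.31%) and 2 (1.71%).

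The other genes of the pathway were taken from lists of ligands, receptors, signalling proteins, binding protein proteases and their partners. Of 56 listed genes 52 were tested, 1 was called higher (1.17% of all genes tested) and 0 lower (0.889%), with 35 higher and 17 lower in direction and a median log2 fold change of 0.17. The called gene was Pappa2, which encodes a protease that cuts IGFBP3 and IGFBP5 and frees IGF-1. Pappa2 was at 6.97, 11.8, 2.46 and 7.57 CPM in aged and 1.17, 1.48, 1.77 and 1.48 CPM in young mice. Every aged mouse was above every young mouse, aged mouse 3 by the least. Its log2 fold change was 2.28 (SE 0.42, 95% interval 1.32 to 3.24, edgeR adjusted p 0.0372). The call was lost in 7 of 17 alternatives, among them limma-voom (adjusted p 0.0776), the fits without aged mouse 2 (0.0589) and those without any 1 of the young mice (0.0948 to 0.123).

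All 5 genes of the list of binding protein proteases and stanniocalcins had an unadjusted p below 0.05 (25.5% of all genes tested), 4 higher and Htra1, a serine protease that cuts binding proteins, lower (log2 fold change -0.48, edgeR adjusted p 0.161), and the list's median was 1.06. Stc2, a secreted inhibitor of PAPPA and PAPPA2, was at 3.49, 4.94, 3.21 and 2.89 CPM in aged and 2.16, 1.32, 1.84 and 1.59 CPM in young mice. The groups did not overlap, and the log2 fold change of 1.07 (SE 0.24) had an edgeR adjusted p of 0.0525 and passed in 5 of 17 alternatives, among them without aged mouse 1 (0.0470) and without aged mouse 4 (0.0321). Its relative Stc1 was at 5.01, 27.9, 12.3 and 8.88 CPM in aged and 5.12 to 7.46 CPM in young mice (log2 fold change 1.06, edgeR adjusted p 0.185). Aged mouse 1 was here below all young mice. Among 5 cell surface partners of the binding proteins, Tmem219, a receptor for IGFBP3, was at 18.8 to 23.9 CPM in aged and 15.2 to 18.4 CPM in young mice (log2 fold change 0.37, edgeR adjusted p 0.0850). Lrp1 (0.37) and Itga5 (0.33), also on that list, had adjusted p of 0.133 and 0.0806.

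Igf2, the other IGF ligand, was at 7.96, 5.14, 2.99 and 2.23 CPM in aged and 2.65, 2.01, 1.29 and 1.42 CPM in young mice. Aged mouse 4 lay within the young range (log2 fold change 1.31, edgeR adjusted p 0.105, and 0.0468 without that mouse). Igf2 also passed the threshold in DESeq2 (adjusted p 0.03). Igfbpl1, a gene related to the binding proteins, and the insulin gene Ins1 had 0 counts in all 8 libraries. Of the 7 receptor substrates and adaptors, 0 were called. Irs2, an adaptor of the insulin and IGF-1 receptors, was at 144, 61.9, 33.8 and 101 CPM in aged and 30.3, 32.4, 46.2 and 32.8 CPM in young mice. Here aged mouse 3 lay within the young range (log2 fold change 1.27, edgeR adjusted p 0.0946). Irs2 passed the threshold in DESeq2 (adjusted p 0.0108). Irs1 was at 55.4 to 82.7 CPM in aged and 46.3 to 54.7 CPM in young mice, without overlap (log2 fold change 0.42, edgeR adjusted p 0.0903).

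Of the 21 PI3K, Akt, mTOR and FOXO genes, 0 were called, and 15 were higher and 6 lower. Mtor, the kinase of the mTOR complexes, was at 320, 310, 278 and 504 CPM in aged and 566, 633, 464 and 479 CPM in young mice. Aged mice 1 to 3 were below all young mice and aged mouse 4 within their range, the same split as for Igfbp4 (log2 fold change -0.60, edgeR adjusted p 0.108, and -0.82 with 0.0136 without aged mouse 4). Mtor also passed the threshold in DESeq2 (adjusted p 0.0309). Foxo3, a transcription factor inhibited by Akt, was at 203 CPM in aged mouse 1 and 79.9 to 86.0 CPM in the other aged mice, beside 71.9 to 82.9 CPM in young mice. The translation repressor gene Eif4ebp1 was at 20.9 CPM in aged mouse 1 and 6.46 to 8.98 CPM in the other 7 mice. The insulin receptor-related receptor Insrr (-0.34), the adaptor Gab1 (0.19) and the IGF2 mRNA-binding protein genes Igf2bp1 (0.33) and Igf2bp2 (0.29) had log2 fold changes with edgeR adjusted p of 0.320, 0.244, 0.620 and 0.525.

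**Figure D4:**
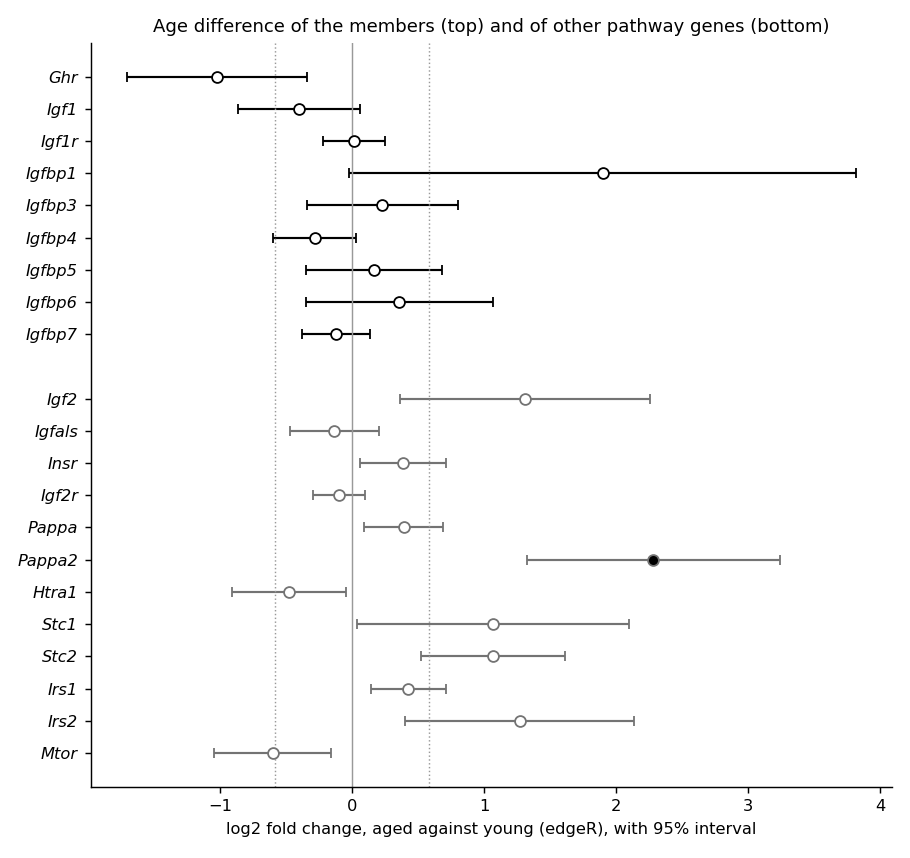
The horizontal axis is edgeR's log2 fold change, aged against young, with 95% intervals, for the 9 tested members (top) and 12 other pathway genes (bottom); dotted lines mark a fold of 1.5 and filled points genes called. Pappa2 (2.28) is the filled point, and Ghr is the member whose interval (-1.70 to -0.34) leaves out 0.

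The fasting and glucocorticoid response list, given because such signals are known to act on Igfbp1, had 12 genes tested, 1 called higher (1.17% of all genes tested) and 11 higher in direction. The gene was Zbtb16, a transcriptional repressor induced by glucocorticoids, at 149 CPM in aged mouse 1, 21.9, 40.7 and 37.6 CPM in the other aged mice and 5.92 to 9.0 CPM in young mice (log2 fold change 3.00, SE 0.57, edgeR adjusted p 0.0390). Without aged mouse 1 its log2 fold change was 2.11 (adjusted p 0.00573), and the call was lost in 6 of 17 alternatives, namely limma-voom (adjusted p 0.0665), without aged mouse 3 (0.0575) and without any 1 of the young mice (0.0994 to 0.125). Pdk4, a kinase gene induced in fasting, was at 892 CPM in aged mouse 1 and 24.9, 60.8 and 44.3 CPM in the other aged mice, beside 14.1 to 29.5 CPM in young mice (log2 fold change 3.60, edgeR adjusted p 0.0998). Without aged mouse 1 the difference was 1.04 (adjusted p 0.0856). Cdkn1a, the gene of the cell cycle inhibitor p21, was at 114, 15.3, 24.7 and 8.99 CPM against 3.91 to 6.38 CPM (log2 fold change 3.00, edgeR adjusted p 0.0658). Cdkn1a passed the threshold in 4 of 17 alternatives. These were DESeq2, library size only, without aged mouse 1 (1.68, adjusted p 0.0274) and without aged mouse 4 (3.33, adjusted p 0.0261). Aged mouse 1 was the highest mouse for all 3, and for each other gene of the list except G6pc. Over the alternatives the log2 fold change fell below 0 for Per1 (lowest -0.22), Klf9 (-0.10), Angptl4 (-0.12), Txnip (-0.05) and Pck1 (-0.85). Pck1 was at 4706, 1023, 1103 and 1144 CPM in aged mice 1 to 4 and 1631 to 2484 CPM in young mice. Fkbp5, the list's gene lower in direction, was at 391, 73.0, 138 and 130 CPM in aged and 177 to 255 CPM in young mice. Without aged mouse 1, Pck1 and Fkbp5 were called lower in aged mice (edgeR adjusted p 0.0204 and 0.0458).

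Marker lists of 13 cell or tissue types were summed per library, and with the fasting list 0 of 14 sums passed a two-sided exact permutation test (lowest p 0.0857, for fat, adjusted p 0.900, n = 4 and 4). The smallest p that this test can give is 0.0286, so a single sum could not pass after adjustment over 14 sums. The result therefore does not show that cell make-up was unchanged. Of the marker genes 1 was called, Csf1r, the receptor for macrophage colony-stimulating factor, at 24.7, 33.6, 23.9 and 41.7 CPM in aged and 75.3, 47.7, 52.6 and 72.6 CPM in young mice (log2 fold change -1.0, edgeR adjusted p 0.0472). That call was lost in 7 of 17 alternatives, with the replicate block and without aged mouse 2, aged mouse 3 or any 1 of the young mice (adjusted p 0.000531 to 0.132 over all alternatives). The other 5 macrophage markers were higher in direction in aged mice. Summed endothelial markers, of the cells in which Igfbp3, Igfbp5 and Igfbp7 are known, were 638 to 944 CPM in aged and 746 to 804 CPM in young mice. Podocyte markers summed to 330 to 644 CPM in aged and 452 to 557 CPM in young mice.

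The call on the members depended on the test and on single mice, as the plot of log2 fold changes under 18 processing settings shows for Ghr, Igfbp1 and Pappa2. In all settings the fitted difference was below 0 for Ghr and above 0 for Igfbp1 and Pappa2. For Igfbp1 every setting kept aged mouse 1 or 2 (37.9 and 36.5 CPM), so its sign could hardly change. Aged mice 3 and 4 (1.39 and 4.36 CPM) lay below all young mice (4.78 to 5.86 CPM), so the constant sign shows no rise shared by the aged mice.

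**Figure D5:**
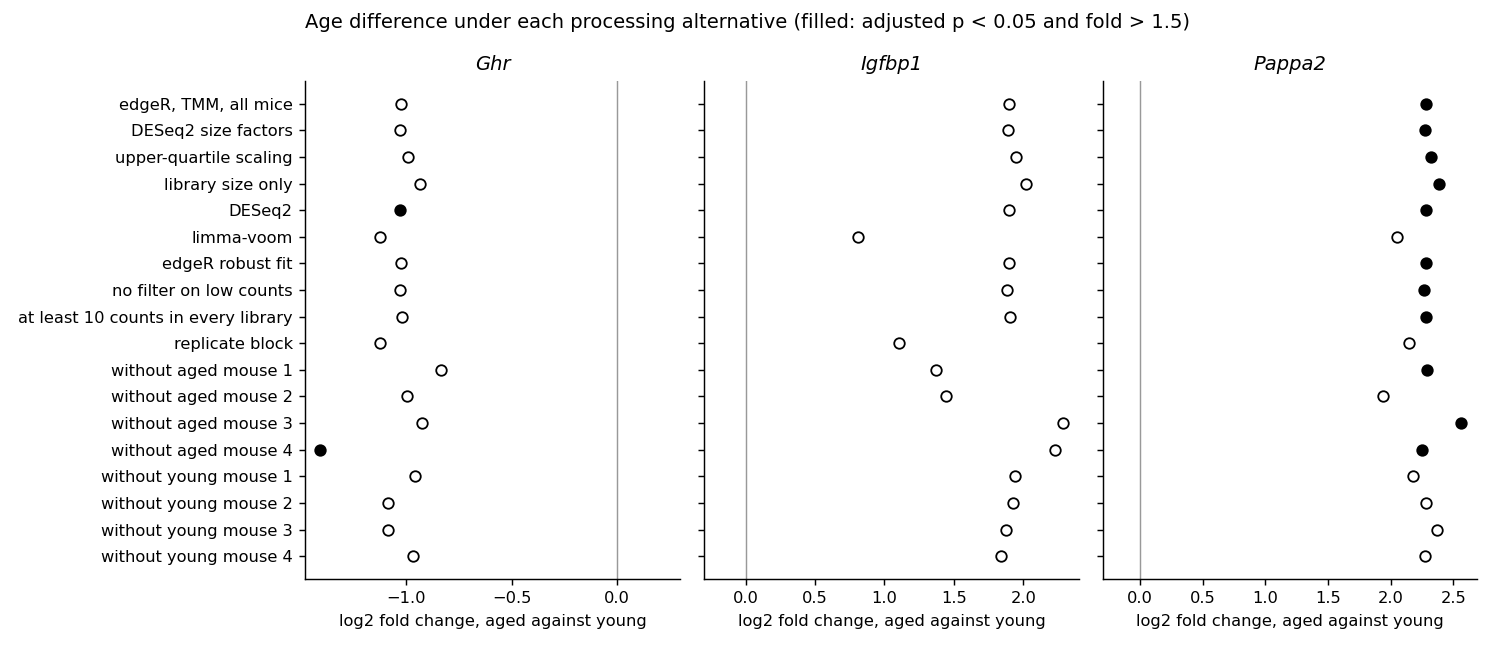
Each point is the log2 fold change (horizontal axis) of one gene under one setting (vertical axis), filled where the adjusted p was below 0.05 and the fold above 1.5. Ghr is filled under DESeq2 and without aged mouse 4, Igfbp1 in no setting, and Pappa2 is open for limma-voom, the replicate block, aged mouse 2 left out and each young mouse left out.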

How the data were processed

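Total RNA of kidney cortex had been depleted of ribosomal RNA and sequenced as stranded paired ends of 100 bp. The authors aligned reads to mm9 with TopHat2 and counted them by strand with HTSeq on RefSeq genes. Per the submitters' processing notes CASAVA 1.8.2 and SAMtools were also used. The authors deposited raw counts per gene, without normalization. The 5 lines that name no gene, 59.4% to 64.5% of all counts in a library, were left out. Each library's own table was used, and a joint table held the same values.

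Counts were tested in edgeR 4.0.16 (R 4.3.3) with TMM, filterByExpr (minimum count 10) and the quasi-likelihood test, aged against young, with Benjamini-Hochberg adjustment over 13944 genes. Calls needed an adjusted p below 0.05 and a fold above 1.5. CPM used TMM library sizes. P-values measure the spread between 4 mice a group. DESeq2 1.42.0, limma 3.58.1 voom, other scalings and filters, a replicate block, and each library left out were alternatives. The longest transcript in place of merged exons was added after seeing the data.

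Positions are from the GENCODE annotation of NCBIM37 (mm9), and promoters, matched by symbol for all 10 genes, are RefSeq on GRCm38.p6. The members, lists and tests were chosen with earlier results of these data known. Named were all members, from each pathway list every called gene and up to 3 genes with the largest difference, from each marker list every called gene and its first 2 genes, and the 2 most similar patterns for the 3 members of lowest p. One gene that this rule names is not reported here. Marker genes that touch no result are given as sums or counts.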

Additional observations from a re-analysis of the deposited data

Results flagged for a closer look

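Within the groups of 4 mice, 1 mouse stood far from the other 3 in 10 of 96 groups examined. A rate of 1 in 20 would give about 4.8, if the groups were independent and not chosen by their values. They were neither, since all genes share the same mice and some were named for a large difference. The measure is the gap to the nearest mouse over the whole range of the group. None of the 10 members was among them. Slc14a2 is not among them either, though it was at 89.2 CPM in aged mouse 1 and 0.26 to 0.327 CPM in the other aged mice. Aged mouse 1 was the highest for 8 of the 10, namely Pdk4 (0.959), Foxo3 (0.950), Igf2bp2 (0.916), Eif4ebp1 (0.891), Zbtb16 (0.851), Cdkn1a (0.850), the summed inner medulla markers (0.898) and the summed fasting and glucocorticoid response genes (0.970). Aged mouse 3 was highest for Itga5 (0.836), at 16.1 CPM beside 14.6 to 14.8 CPM in the other aged mice. Young mouse 3 was highest for Irs2 (0.842), at 46.2 CPM beside 30.3 to 32.8 CPM.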

How the results depend on the processing

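Over all genes, 287 were called, against 873 in DESeq2, 488 with library size only and 770 at an adjusted p below 0.1. Leaving out 1 mouse gave 8 (without young mouse 1) to 733 (without aged mouse 4). The counts were 444, 119 and 115 when aged mouse 1, 2 or 3 was left out, and 35, 14 and 12 for young mouse 2, 3 or 4. Members called were 0, against 1 (Ghr) in DESeq2, 1 (Ghr) at an adjusted p below 0.1, and 0 to 1 with 1 mouse left out (Ghr without aged mouse 4). Of the pathway and fasting genes 2 were called, against 8 in DESeq2, 5 with library size only, 0 in limma-voom, 7 at an adjusted p below 0.1 and 0 to 6 with 1 mouse left out. No marker list's sum passed with library size only. With 1 mouse left out none passed either, but the exact test then has too few ways to split the mice for a sum to pass. Those left-out runs therefore cannot show whether the marker result is robust. No other settings were run for it.

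The replicate numbers gave correlations of deviations of 0.206, 0.038, 0.199 and -0.030 for mice of the same number. Aged mice 1, 2 and 3 correlated best with the young mouse of their number. Aged mouse 4 did not, nor did young mice 2 and 4 with the aged mouse of theirs. The sample titles give a number only, and these correlations cannot tell whether mice of the same number share more than that. With the number as a block 130 genes, 0 members and 1 pathway gene (Zbtb16) were called.

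With 1 mouse left out the log2 fold change ran from -0.031 to 0.061 for Igf1r (below 0 without aged mouse 2 or 4 or young mouse 1 or 3), from -0.054 (without aged mouse 2) to 0.33 for Igfbp5, from -0.91 to 0.20 (without young mouse 3) for Socs2, from -0.019 (without aged mouse 4) to 0.60 for Igf2bp1 and from -0.058 (without aged mouse 1) to 0.40 for Igf2bp2, so the sign changed, as it did for Igf2r with library size only (0.012). None of these was called. Scaling by library size only moved the median gene up by 0.11 (log2). The cause of these changes was not tested. Igfbp2 and Igfbp6 rest on few counts, which limits their precision.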
